A study of Mus musculus with 768 samples.

Results

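The potassium, calcium and TRP channel genes were taken by symbol, as all rows whose name begins with Kcn or Cacn or with Trpa, Trpc, Trpm or Trpv and a digit, without Kcnj8. The rule gave 146 of the 24490 mouse genes in the table, and it used no measured value. The set holds channel pores, their accessory subunits, 4 RNAs named for the opposite strand of a channel gene, and Trpc4ap, which encodes a TRPC4-associated protein and no channel. They were measured by Smart-seq2, a plate method that reads the whole transcript of one cell per well, in cancer-associated fibroblasts (CAFs) from 2 mammary tumors of 14-week-old MMTV-PyMT mice (FVB/N-Tg(MMTVPyVT)634Mul/J), in which the mouse mammary tumor virus promoter drives the polyoma middle T antigen in mammary epithelium. Each tumor filled 1 plate of 384 wells, so tumor and plate cannot be told apart. The cells had been sorted as negative for EpCAM, CD45, CD31 and NG2, which removes epithelial cells, leukocytes, endothelial cells and many pericytes.

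Of 768 wells, 727 held at least 10000 reads on mouse genes and were kept, 373 from tumor 1 and 354 from tumor 2, with a median of 219264 and 198180 reads. They were parted by genes outside the set. A well was called Rgs5-high, Dcn-high or Mia/Scrg1-positive when Rgs5, Dcn or the higher of Mia and Scrg1 reached 100 RPKM and 4 times each of the other levels. RPKM is the read count scaled to gene length and to the well's total. Tumor 1 gave 262 Rgs5-high, 82 Dcn-high and 5 Mia/Scrg1-positive wells, tumor 2 gave 239, 81 and 16, and 42 wells stayed unclassed. The 12 vascular markers summed to 9877 and 9851 RPKM in the Rgs5-high wells of the 2 tumors and to at most 297 RPKM in either of the other classes, and the 12 matrix markers to 9444 and 8279 RPKM in the Dcn-high wells, 1165 and 1006 RPKM in the Mia/Scrg1-positive wells and 138 and 217 RPKM in the Rgs5-high wells. In the Mia/Scrg1-positive wells, the small class, 12 developmental markers summed to 10675 and 7340 RPKM. These 3 lists hold the genes that set the classes, so the sums are in part given by the gate: Rgs5 made up 5801 and 5309 RPKM of the first, Dcn 2641 and 2120 RPKM of the second, and Mia 909 and 631 RPKM and Scrg1 411 and 456 RPKM of the third. In the Mia/Scrg1-positive wells epithelial markers also summed to 122 and 310 RPKM and myoepithelial markers to 958 and 57.0 RPKM. Single wells carried the larger of these means: 1 tumor 1 well held 4481 RPKM of myoepithelial markers, around a median of 37.9 RPKM, and 1 tumor 2 well held 3925 RPKM of epithelial markers, around a median of 65.5 RPKM. The 5 endothelial markers summed to 63.4 and 122 RPKM in Rgs5-high wells, nearly all of it Emcn, which was read in 44.3% of them, while Pecam1 and Cdh5 had no read there. They summed to at most 0.352 RPKM in Dcn-high wells, and to 0 and 9.96 RPKM in Mia/Scrg1-positive wells. Rgs5 itself was read in 90.2% of Dcn-high wells at a median of 6.02 RPKM, against 5580 RPKM in Rgs5-high wells. Dcn was read in 43.1% of Rgs5-high wells, while Mia and Scrg1 were read in at most 2.196% of the Rgs5-high or Dcn-high wells. Cells of a tumor are not replicates, so levels were compared over the 6 sums of a class in a tumor, with 2 tumors for each class.

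Voltage-gated calcium channels pair a Cacna1 pore with beta and alpha2delta subunits and admit calcium on depolarization, and in vascular smooth muscle and pericytes they set contraction. TRPC pores admit sodium and calcium after receptor activation, and TRPV and TRPM pores respond to stretch, heat, lipids or ions. Potassium channels hold the membrane potential negative: the 2-pore-domain (Kcnk) family carries background current, the calcium-activated family (Kcnma1, Kcnn) opens when calcium rises, and accessory subunits such as Kcne and Kcnmb tune the pores.

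The stretches upstream of 4 of the genes that were called between Rgs5-high and Dcn-high cells are shown so that the letters before a gene higher in one class can be set beside those before a gene higher in the other: Kcne4 and Trpc6 were higher in Rgs5-high cells, and Kcnk1 and Kcnk2 in Dcn-high cells. They are from RefSeq on GRCm38.p6 and hold up to 250 bases before a listed start, cut for Kcne4 to the 97 bases before an earlier GENCODE start. The RefSeq spans of Trpc6, Kcnk1 and Kcnk2 begin farther upstream, so other starts are possible. Kcne4 has its window at chr1:78816661-78816757 on the plus strand, Trpc6 at chr9:8543892-8544141 on the plus strand, Kcnk1 at chr8:125994852-125995101 on the plus strand, and Kcnk2, for which the most upstream of 4 listed starts was used, at chr1:189402274-189402523 on the minus strand. Capitals mark matches on either strand to the CArG box, the site form of serum response factor, and to 4 short forms: GGAATG of TEAD factors, GTGGGAA of RBPJ, AACAAT of SOX factors and GGGCGG of SP1. The forms do not overlap in these windows.
Kcne4: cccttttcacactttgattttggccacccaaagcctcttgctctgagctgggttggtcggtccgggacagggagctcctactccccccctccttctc
Trpc6: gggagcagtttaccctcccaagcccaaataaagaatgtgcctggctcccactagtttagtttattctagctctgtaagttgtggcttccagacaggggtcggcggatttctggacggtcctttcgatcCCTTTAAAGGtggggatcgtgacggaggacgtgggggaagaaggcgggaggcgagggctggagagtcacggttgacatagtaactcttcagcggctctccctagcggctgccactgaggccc
Kcnk1: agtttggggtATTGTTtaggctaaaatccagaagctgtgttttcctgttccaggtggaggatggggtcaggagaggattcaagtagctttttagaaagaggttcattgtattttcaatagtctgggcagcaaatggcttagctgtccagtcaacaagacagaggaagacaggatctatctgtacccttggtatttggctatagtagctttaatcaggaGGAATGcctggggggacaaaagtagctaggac
Kcnk2: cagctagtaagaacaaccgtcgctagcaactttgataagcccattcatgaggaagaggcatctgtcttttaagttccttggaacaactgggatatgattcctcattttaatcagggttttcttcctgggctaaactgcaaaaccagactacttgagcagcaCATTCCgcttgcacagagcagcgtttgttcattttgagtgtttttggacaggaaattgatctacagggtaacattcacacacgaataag
The Trpc6 stretch held 1 CArG box, a form found in 1.40% of the 27025 mouse promoters of 250 bases. The Kcnk1 stretch held 1 GGAATG and 1 AACAAT, found in 12.6% and 9.65% of promoters, and the Kcnk2 stretch held 1 match to the TEAD form. The RBPJ form, found in 5.41% of promoters, and the SP1 form, found in 32.9%, were in none of the 4. These matches describe letters in a window and were not tested for use.

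Of the 146 genes, 102 were read in at least 1 kept well and 44 in none. The 102 are 69.9% of the set, against 70.4% of all genes. Few were read widely: 17 genes were read in at least 10% of wells, or 11.6% of the set against 40.4% of all genes, and 45 were read in 1 to 7 wells. The 8 genes read in at least 50% of wells included Trpc4ap, Cacna2d1, Trpc6, Trpm7, Cacnb3, Cacna1c and Kcne4, at 70.4%, 65.6%, 64.9%, 58.7%, 58.2%, 58.0% and 52.7%.

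The subfamilies were read unevenly. All 8 calcium- or sodium-activated potassium channel genes, 15 of 17 potassium channel accessory genes, 9 of 10 Cacna1 pore genes and 11 of 16 calcium channel accessory genes were read in some well. Of the 2-pore-domain genes 10 of 14 were read, of the inward rectifiers 9 of 14, of the TRPC pores 4 of 7, of TRPM 6 of 8 and of TRPV 4 of 6, while Trpa1 was not. The 40 voltage-gated potassium channel pores were the largest group, and 24 of them were read. The 44 genes with no read in a kept well included Cacna1i, Cacna2d4, Cacng2, Cacng3, Cacng5, Cacng6, Kcna1, Kcna2, Kcna3, Kcna4, Kcna7, Kcnb2, Kcnc2, Kcnc4, Kcnd3os, Kcne2, Kcng3, Kcnh4, Kcnh5, Kcnh6, Kcnh7, Kcnj1, Kcnj3, Kcnj5, Kcnj6, Kcnj9, Kcnk10, Kcnk16, Kcnk18, Kcnk9, Kcnmb2, Kcnmb4os1, Kcnv1, Kcnv2, Trpa1, Trpc2, Trpc5, Trpc5os, Trpc7, Trpm5, Trpm8, Trpv1 and Trpv3. At this depth a gene carried by few copies can go unread in a well, so these are not shown to be absent.

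The median number of the genes read per well was 8 and 9 in the Rgs5-high wells of tumors 1 and 2, 9 and 8 in the Dcn-high wells and 11 and 11 in the Mia/Scrg1-positive wells. After each well was thinned to 50000 reads the medians were 7 and 7, 6 and 6, and 10 and 8. Their share of all reads was not alike: it was 0.197% and 0.201% in Rgs5-high, 0.0764% and 0.0747% in Dcn-high, and 0.120% and 0.139% in Mia/Scrg1-positive wells. Mia/Scrg1-positive wells thus had the highest median number in both tumors, and Rgs5-high wells the highest share of reads. Over all mouse genes the median number read per well was also highest in Mia/Scrg1-positive wells, at 6584, against 5566 in Dcn-high and 4121 in Rgs5-high wells. ERCC spike-in RNA took a median of 5.90%, 6.23% and 13.5% of reads in these classes. These values were not tested.

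A filter of a mean of 1 RPKM over the kept wells left 25 of the genes for the test, or 17.1% of the set against 47.8% of all genes. Since 501 of the 727 wells were Rgs5-high, a gene could pass through that class alone, and 4 of the 25, among them Kcnk3, Kcnt2 and Trpc1, reached 1 RPKM only there, as 2, Cacna1g and Kcns3, did only in Dcn-high wells. A gene that passed through the one class where it is high had to differ, so counts of calls among the 25, and the calls of these genes, are given as a description. Kcnk6 and Kcnk2 lay just inside the filter, at 1.00 and 1.02 RPKM, and Kcne1l and Kcnd1 just outside, at 0.928 and 0.911 RPKM. In all, 15 of the 25 were called in at least 1 of the 3 comparisons, by the quasi-likelihood test of edgeR with Benjamini-Hochberg adjustment over 11715 genes. Level below means RPKM averaged over the wells of a class in a tumor, and differences are log2 fold changes ± SE of the summed reads, scaled to library size.

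**Figure D1:**
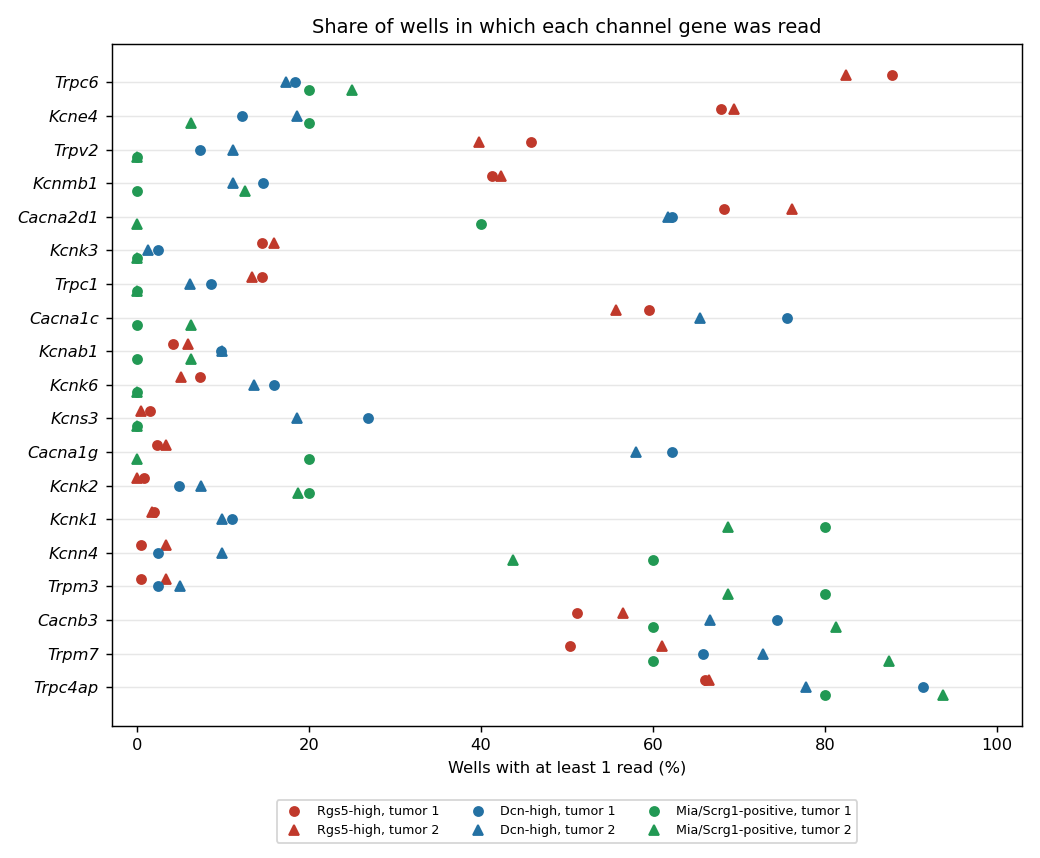
Percent of wells with at least 1 read (x axis) for 19 channel genes (y axis) in the 3 classes, circles for tumor 1 and triangles for tumor 2. Trpc6 was read in 87.8% and 82.4% of Rgs5-high wells, Cacna1g in 62.2% and 58.0% of Dcn-high wells, and Kcnk1 in 80% and 68.8% of Mia/Scrg1-positive wells, while the points of Cacnb3, Trpm7 and Trpc4ap lie at 50.4% or more in all classes.

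Between Rgs5-high and Dcn-high cells, 4 of the 25 genes were higher in Rgs5-high cells (among them Trpc6, Kcne4 and Kcnk3) and 2 were lower (Kcnk1 and Kcnk2), or 24% of those tested where 4.52% of all genes were called. By direction, 1.59% of all genes were called higher in Rgs5-high cells and 2.94% higher in Dcn-high cells. The median difference of the 25 was 0.02, against 0.04 for all genes tested. With the tumor as a block, only Kcne4 and Trpc6 of the 6 stayed called. Without the filter, 6 of 101 genes were called higher in Rgs5-high cells (1.28% of all genes) and 3 higher in Dcn-high cells (2.41%), where 3.7% of all genes were called either way. The Rgs5-high wells also carried more smooth muscle marker RNA, summed to 2232 and 1687 RPKM against 548 and 901 RPKM in Dcn-high wells, with 6 of 6 listed genes read in each. Acta2 made up 1580 and 1228 RPKM of the Rgs5-high sums, and Tagln went the other way in tumor 2, at 290.5 against 328 RPKM. Endothelial marker RNA was also higher in Rgs5-high wells, through Emcn. The part of smooth muscle or endothelial marker RNA in these results was not tested. Kcnj8, the inward rectifier left out of the set, was read in 95.01% of the Rgs5-high wells.

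Trpc6, a pore opened by diacylglycerol, stood at 135 and 111 RPKM in the Rgs5-high wells of tumors 1 and 2, at 4.49 and 1.69 RPKM in Dcn-high wells and at 0.268 and 0.337 RPKM in Mia/Scrg1-positive wells. These class means had the same order in both tumors. Single wells overlapped. Rgs5-high wells ran from 0 to 516 RPKM around a median of 106 RPKM in tumor 1, and from 0 to 461 around 86.5 RPKM in tumor 2. The median Dcn-high well was at 0 and the highest at 186 and 47.8 RPKM, and the Dcn-high wells with a read had a median of 1.38 and 1.10 RPKM. The difference from Dcn-high cells was 5.09 ± 0.57 (adjusted p = 0.0121, edgeR; 0.0261 with the tumor as a block).

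Trpc1, another TRPC pore, was at 4.31 and 4.51 RPKM in Rgs5-high wells and at 0.363 and 0.658 RPKM in Dcn-high wells, and that difference was not called. It had no read in the 21 Mia/Scrg1-positive wells, which allows a share of wells of up to 52.2% in tumor 1 and 20.6% in tumor 2 (exact binomial limits, for counting error only).

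Kcne4, an accessory subunit that damps several voltage-gated potassium channels, was at 105 and 120 RPKM in Rgs5-high wells, 4.03 and 2.60 RPKM in Dcn-high wells, and 0.223 and 0.142 RPKM in Mia/Scrg1-positive wells. The class means had the order Rgs5-high, Dcn-high, Mia/Scrg1-positive in both tumors, while single wells overlapped: Rgs5-high wells began at 0, around medians of 56.3 and 58.8 RPKM, and Dcn-high wells reached 160 and 111 RPKM. It was 4.78 ± 0.30 higher in Rgs5-high than in Dcn-high cells (adjusted p = 0.00321, edgeR; 0.0163 with the tumor as a block). A known partner pore, Kcnq1, was read far less, in 5 of the 344 Rgs5-high wells that held Kcne4 reads. Kcne4 was thus read mostly in wells without a read of this pore.

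Kcnk3, a background potassium channel sensitive to acid, was at 3.79 and 6.12 RPKM in Rgs5-high wells, at 0.0428 and 0.0585 RPKM in Dcn-high wells and unread in Mia/Scrg1-positive wells. It was read in 14.5% and 15.9% of Rgs5-high wells, so most wells held none. Its difference from Dcn-high cells was 6.63 ± 1.03 (adjusted p = 0.0447, edgeR; 0.116 with the tumor as a block).

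Trpv2 and Kcnmb1 had the same direction and missed the threshold in the fit with the filter. Trpv2, a TRPV pore named in stretch responses, was at 27.3 and 22.7 RPKM in Rgs5-high wells against 1.16 and 2.98 RPKM in Dcn-high wells, a difference of 3.35 ± 0.61 (adjusted p = 0.0615, edgeR). Kcnmb1, the beta subunit that tunes the large-conductance calcium-activated potassium channel of smooth muscle, was at 20.3 and 18.8 RPKM against 3.22 and 1.83 RPKM, a difference of 2.73 ± 0.56 (adjusted p = 0.0593, edgeR). Both passed without the filter (adjusted p = 0.0432 and 0.0479, edgeR). Over all settings tried, leaving out 1 library included, the adjusted p ran from 9.21e-06 (DESeq2) to 0.446 for Trpv2 and from 1.51e-06 (DESeq2) to 0.474 for Kcnmb1, both highest without the Rgs5-high sum of tumor 1. The pore that Kcnmb1 serves, Kcnma1, chosen here after its values were seen, was read in 0.599% of Rgs5-high and 8.59% of Dcn-high wells. Of the 209 Rgs5-high wells that held Kcnmb1 reads, 0 held a read of Kcnma1, against 4 of the 21 Dcn-high wells with Kcnmb1.

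**Figure D2:**
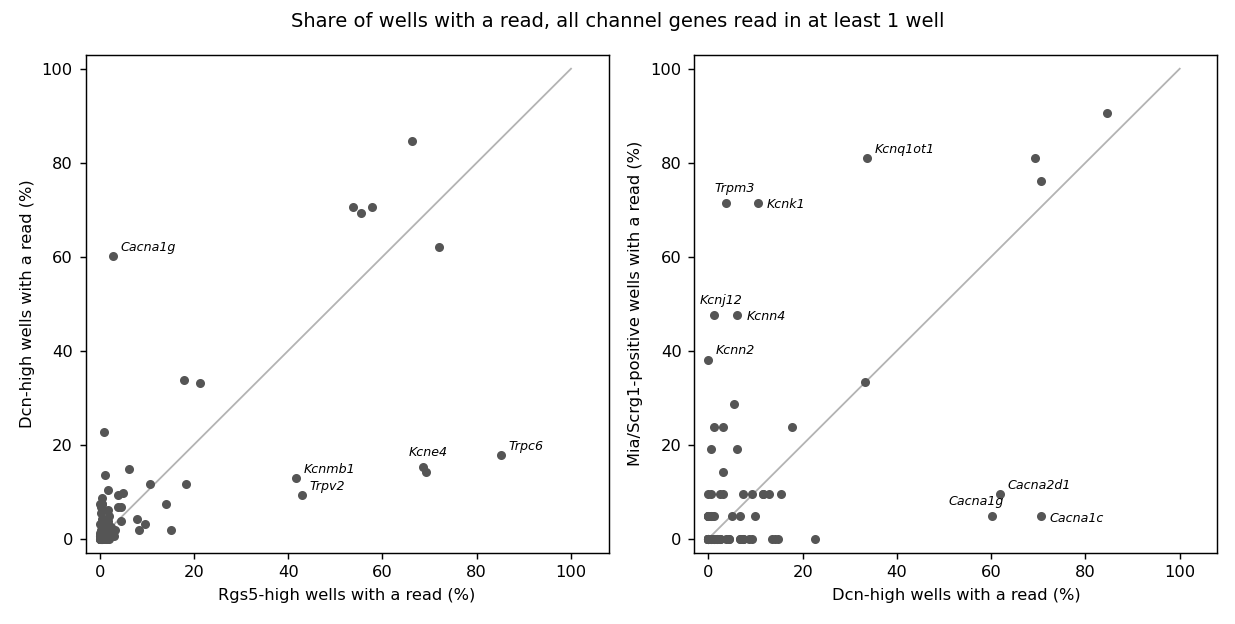
Percent of wells with a read of each of the 102 channel genes read at all, Rgs5-high against Dcn-high wells (left) and Dcn-high against Mia/Scrg1-positive wells (right), with names for most genes whose shares differ by over 25 points and a line of equal shares. On the left Trpc6, Kcne4, Trpv2 and Kcnmb1 fall to the Rgs5-high side and Cacna1g to the Dcn-high side, at 2.79% against 60.1%.

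On the Dcn-high side, Kcnk1, a weak inwardly rectifying background channel, was at 5.58 and 5.39 RPKM, against 0.0639 and 0.271 RPKM in Rgs5-high wells. It was read in 10.4% of Dcn-high and 1.80% of Rgs5-high wells, so the class mean came from a small part of the wells. The difference was -5.86 ± 0.71 for Rgs5-high minus Dcn-high (adjusted p = 0.0160, edgeR; 0.0516 with the tumor as a block). Kcnk2, a stretch-sensitive background channel, was at 3.23 and 2.27 RPKM in Dcn-high wells and had 2 reads in all Rgs5-high wells. It was read in 4.88% and 7.41% of the Dcn-high wells, and 1 well of tumor 1, at 209 RPKM, gave most of that tumor's mean. Its reads, scaled to library size, were 432 times higher in Dcn-high cells (95% counting interval 119 to 3579; adjusted p = 0.0265, edgeR; 0.0758 with the tumor as a block).

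Cacna1g, the pore of a T-type calcium channel that opens at weak depolarization, is not among the genes the naming rule picks and is given because its shares stood apart once seen. It was at 4.803 and 5.43 RPKM in Dcn-high wells, read in 98 of 163, and at 0.0185 and 0.0272 RPKM in Rgs5-high wells, read in 14 of 501. The highest Rgs5-high well held 1.82 RPKM. The difference of -8.60 ± 1.63 missed the threshold (adjusted p = 0.0513, edgeR), and over all settings tried the adjusted p ran from 1.13e-08 with DESeq2 to 0.377 without the Rgs5-high sum of tumor 1, at 0.0311 without the filter and 0.113 with the tumor as a block. Kcns3, a silent subunit that modifies Kv channels, was at 11.2 and 6.54 RPKM in Dcn-high wells and 0.409 and 0.520 RPKM in Rgs5-high wells, with a difference of -4.10 ± 0.75 (adjusted p = 0.0639, edgeR; from 1.96e-07 with DESeq2 to 0.462 without the Rgs5-high sum of tumor 2).

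The L-type calcium channel was read in both large classes. Cacna1c, its pore, was at 6.00 and 5.77 RPKM in Rgs5-high and 6.49 and 5.54 RPKM in Dcn-high wells, and the tumors of the classes overlapped. Cacna2d1, the alpha2delta subunit, was at 18.7 and 22.2 RPKM in Rgs5-high against 6.99 and 6.33 RPKM in Dcn-high wells, a difference that was not called. Cacna1c was read with Cacna2d1 in 212 of 501 Rgs5-high wells and 80 of 163 Dcn-high wells, and with Cacna1g in 7 and 81. So the pairing of the L-type with the T-type pore was met in 81 Dcn-high wells and 7 Rgs5-high wells, and in 0 of the 21 Mia/Scrg1-positive wells.

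**Figure D3:**
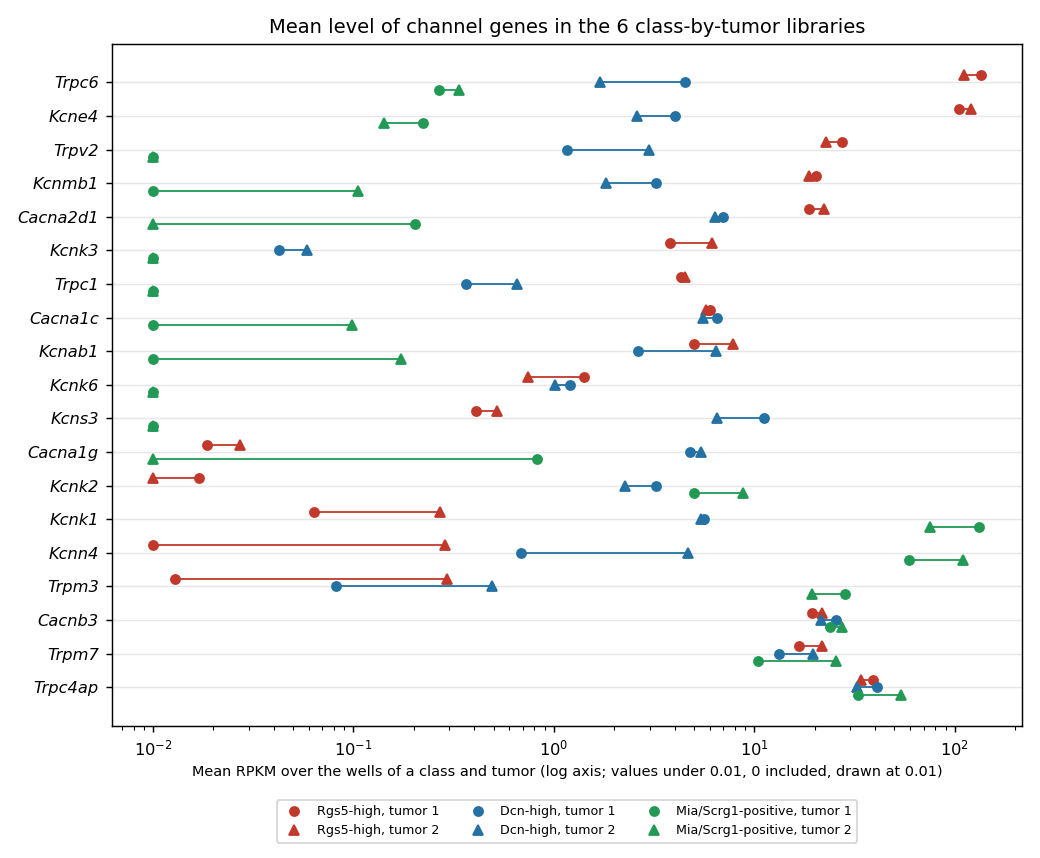
Mean RPKM (log axis, values under 0.01 drawn at 0.01) of 19 channel genes over the wells of each class in tumor 1 (circles) and tumor 2 (triangles), joined by a line. Trpc6 and Kcne4 lie over 100 RPKM in Rgs5-high wells and under 5 RPKM in the other classes, whereas Kcnk1 and Kcnn4 lie at 58.8 RPKM or more in Mia/Scrg1-positive wells alone.

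Against the Mia/Scrg1-positive cells, 11 of the 25 genes were higher in Rgs5-high cells and 3 lower, or 56% where 12.2% of all genes were called (7.65% higher and 4.58% lower). In the comparison of Dcn-high with Mia/Scrg1-positive cells, 10 were higher in Dcn-high cells and 1 lower, or 44% where 11% of all genes were called (7.96% higher and 3.04% lower). Both comparisons use the same Mia/Scrg1-positive wells, 5 and 16, with summed totals of 1483101 and 3254673 reads against 19061691 or more for every other sum, and 8 of the 25 genes had no read in one of the classes of each pair. With those set at 3 reads over the class, the median difference of the 25 was 3.03 for Rgs5-high minus Mia/Scrg1-positive cells. It was 1.52 for Dcn-high minus Mia/Scrg1-positive cells. The medians for all genes tested were 0.15 and 0.14. The filter on the mean over all wells acts on these counts too, so they are a description. Of the 25 genes, 9 reached 1 RPKM in Mia/Scrg1-positive wells, against 20 in Rgs5-high and 20 in Dcn-high wells. Of the genes that it removed, 12 reached 1 RPKM in Mia/Scrg1-positive wells, as did 6 in Dcn-high and 1 in Rgs5-high wells. Without the filter, 10 of 101 genes were called higher and 4 lower in Rgs5-high cells, where 5.32% and 3.85% of all genes were (9.18% either way). In Dcn-high cells 9 were called higher and 2 lower, where 5.59% and 2.35% of all genes were (7.94% either way). Summed smooth muscle marker RNA was also lower in Mia/Scrg1-positive wells, at 28.0 and 453 RPKM with 5 and 6 of the 6 genes read, against 548 RPKM or more in each sum of the other classes. Acta2, the largest part, Tagln and Actg2 were lower there than in Dcn-high wells in both tumors. Cnn1, Lmod1 and Myh11 went the other way in both tumors, Cnn1 at 4.42 and 27.0 against 0.908 and 0.0149 RPKM in Dcn-high wells. The part of these markers in the results was not tested.

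Of the calcium channel genes tested, Cacna1c and Cacna2d1 were called lower in Mia/Scrg1-positive cells than in both other classes, while Cacnb1, Cacnb3 and Cacna1g were not called. Cacna1c was at 0 and 0.0986 RPKM in Mia/Scrg1-positive wells, with a read in 1 of 21 wells, and was 6.18 ± 0.78 higher in Rgs5-high cells (adjusted p = 0.00898, edgeR) and 6.48 ± 0.78 higher in Dcn-high cells (adjusted p = 0.00952, edgeR). Cacna2d1 had 2 reads there, and its reads, scaled to library size, were 400 times higher in Rgs5-high (interval 111 to 3299) and 117 times higher in Dcn-high cells (interval 32.2 to 963). Cacnb3, the beta subunit of the same channel, was at 23.9 and 27.5 RPKM in Mia/Scrg1-positive wells and 19.5 and 21.8 RPKM in Rgs5-high wells. The beta subunit was read in 16 of the 21 wells, in 15 of them without a read of Cacna1c.

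Among the TRP pores, Trpc6 was 8.95 ± 0.76 higher in Rgs5-high (adjusted p = 0.00307, edgeR) and 3.85 ± 0.72 higher in Dcn-high than in Mia/Scrg1-positive cells (adjusted p = 0.0298, edgeR). Trpv2 was called higher in Rgs5-high and in Dcn-high cells and Trpc1 in Rgs5-high cells, both unread in Mia/Scrg1-positive wells. With that class set at 3 reads, the ratios would be 132-fold and 10.7-fold for Trpv2 and 22.004-fold for Trpc1. Such ratios allow for counting error only, not for which cells were drawn, so they are no lower limits. With the tumor as a block, the calls of Trpc1 in Rgs5-high cells (adjusted p = 0.0754) and of Trpv2 in Dcn-high cells (adjusted p = 0.0696) were lost, both by edgeR.

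Of the potassium channel genes, Kcne4 had 2 reads in Mia/Scrg1-positive wells, 751 times fewer, scaled to library size, than in Rgs5-high cells (interval 208 to 6198) and 22.5 times fewer than in Dcn-high cells (interval 6.18 to 186). Kcnmb1 also had 2 reads, 240 times fewer than in Rgs5-high (interval 66.4 to 1982) and 29.7 times fewer than in Dcn-high cells (interval 8.19 to 246). Kcnab1, a beta subunit of Kv1 channels, had 1 read, 86.6 times fewer than in Rgs5-high cells (interval 15.5 to 3421) and 72.6 times fewer than in Dcn-high cells (interval 12.98 to 2871). It came from few wells in every class: 4.99% of Rgs5-high wells held it, at a median of 104 and 132 RPKM in those wells of the 2 tumors. Of the 21 Mia/Scrg1-positive wells 1 held it, in tumor 2 at 2.75 RPKM. Its ratios thus rest on the level in that well and not on the share of wells, and the intervals count reads, not cells. Kcnk3 and Kcnk6, both unread in Mia/Scrg1-positive wells, were at least 34.0-fold and at least 8.03-fold higher in Rgs5-high cells, calls that were lost with the tumor as a block (adjusted p = 0.0674 and 0.111, edgeR). Kcnk6 was also called, at least 7.80-fold, in Dcn-high cells (blocked adjusted p = 0.108, edgeR), and Kcns3 was at least 46.1-fold higher there.

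The 3 genes that were lower in Rgs5-high cells were Kcnk1, Kcnn4 and Kcnk2. Kcnk1 was at 132 and 75.0 RPKM in Mia/Scrg1-positive wells, read in 4 of 5 and 11 of 16. Tumor 1 wells ran from 0 to 303 RPKM around a median of 115, and tumor 2 wells from 0 to 193 around 99.5 RPKM. The difference was -9.89 ± 0.83 for Rgs5-high (adjusted p = 0.00307, edgeR) and -4.03 ± 0.63 for Dcn-high minus Mia/Scrg1-positive cells (adjusted p = 0.0189, edgeR; 0.0507 with the tumor as a block). Kcnk1, Kcne4 and Trpc6 were each called in all 3 comparisons, and of these Kcnk1 alone was highest in Mia/Scrg1-positive cells.

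Kcnn4, the intermediate-conductance calcium-activated potassium channel, was at 58.8 and 110 RPKM in Mia/Scrg1-positive wells, read in 3 of 5 and 7 of 16, and at 0.00709 and 0.287 RPKM in Rgs5-high wells. It was -9.67 ± 1.60 for Rgs5-high minus Mia/Scrg1-positive cells (adjusted p = 0.0195, edgeR). Against Dcn-high cells, at 0.689 and 4.67 RPKM, the difference of -4.76 ± 1.27 missed the threshold (adjusted p = 0.0743, edgeR) and passed it with the tumor as a block (adjusted p = 0.0493, edgeR). Kcnk1 and Kcnn4 were read together in 9 of the 21 wells, Kcnk1 alone in 6 and Kcnn4 alone in 1. Kcnk2 was at 4.99 and 8.80 RPKM, read in 1 of 5 and 3 of 16 wells, and its reads, scaled to library size, were 1589 times higher than in Rgs5-high cells (interval 432 to 13241; adjusted p = 0.00990, edgeR). It was not called against Dcn-high cells (adjusted p = 0.391, edgeR).

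**Figure D4:**
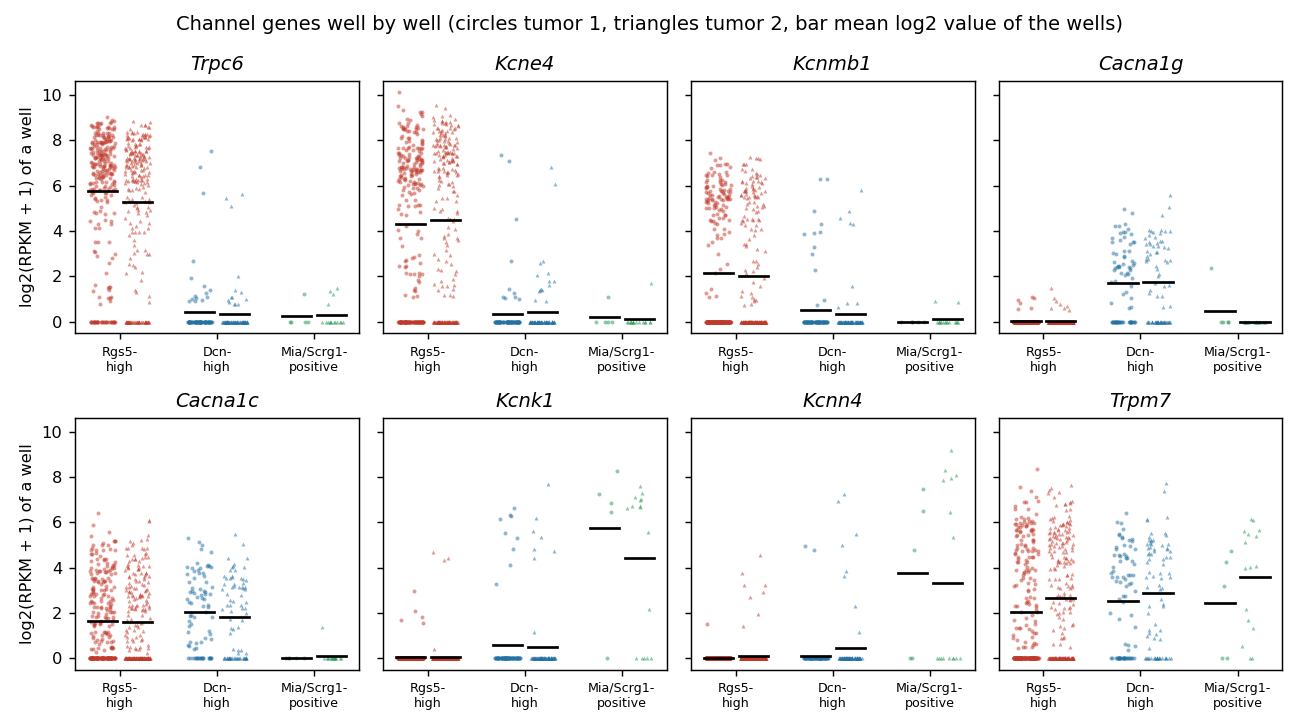
log2(RPKM + 1) of 8 channel genes in each well (y axis) by class (x axis), circles for tumor 1 and triangles for tumor 2, with a bar at the mean of the log2 values. Trpc6 and Kcne4 fill the Rgs5-high column, Cacna1g is near 0 there and spread over the Dcn-high wells, Cacna1c is above 0 in 1 well of the Mia/Scrg1-positive column, where Kcnk1 and Kcnn4 are high, and Trpm7 is spread over all 3.

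Epithelial and myoepithelial marker RNA stood beside these results. Of the 21 Mia/Scrg1-positive wells, 5 held at least 100 RPKM of summed myoepithelial markers. Kcnk1 was read in 2 of these 5 and in 13 of the other 16 wells, at a mean of 81.5 and 90.7 RPKM, and Kcnn4 in 0 of 5 and 10 of 16. Summed epithelial markers reached 100 RPKM in 8 wells, where Kcnk1 was read in 6 and Kcnn4 in 5, against 9 and 5 of the other 13. In tumor 1 every Mia/Scrg1-positive well held at least 21.4 RPKM of epithelial and 16.9 RPKM of myoepithelial markers, whose median was 0 in the wells of both other classes. In tumor 2, which gave most wells of the class, the lowest well held 0 RPKM of each list, around medians of 65.5 and 15.1 RPKM. The split was made after the data were seen, and the part of these markers in the results was not tested.

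Of the genes below the filter, 4 that reached 1 RPKM in Mia/Scrg1-positive wells are named here after their values were seen. Trpm3, a calcium-permeable channel opened by pregnenolone sulfate, was at 28.4 and 19.5 RPKM there, read in 15 of 21 wells, against at most 0.492 RPKM in any other class and tumor. Kcnj12, an inward rectifier, was at 5.22 and 7.60 RPKM and read in 10 wells. Without the filter it was the one of the 4 to be called, at -9.36 ± 1.72 for Rgs5-high (adjusted p = 0.0173, edgeR) and -7.62 ± 1.62 for Dcn-high minus Mia/Scrg1-positive cells (adjusted p = 0.0333, edgeR). Trpm3 missed the threshold in that fit, at adjusted p = 0.0609 and 0.0938. Kcnn2, a small-conductance calcium-activated channel, was at 26.8 and 4.35 RPKM in Mia/Scrg1-positive wells and had 0 reads in Dcn-high wells, but it was also read in 3 Rgs5-high wells of tumor 1, at up to 95.9 RPKM. Trpv4, an osmotically gated pore, was at 0 RPKM in Mia/Scrg1-positive wells of tumor 1 and 14.3 RPKM in those of tumor 2, so its level there rested on 1 tumor. It was also read in Dcn-high wells of both tumors, at up to 29.7 and 46.8 RPKM.

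A last set showed no called difference between any pair of classes. Trpc4ap was at 39.0 and 34.1 RPKM in Rgs5-high, 40.8 and 32.7 RPKM in Dcn-high and 33.0 and 54.0 RPKM in Mia/Scrg1-positive wells. Trpm7, a magnesium- and calcium-permeable channel fused to a kinase, was at 16.7 and 21.7, 13.3 and 19.7, and 10.4 and 25.6 RPKM in the same order. For both, the levels of the 3 classes overlapped between tumors. Kcnip3, a calcium-binding partner of Kv4 channels, was at 6.98 and 10.3 RPKM in Rgs5-high wells and at 2.29 and 2.75 RPKM in Dcn-high wells and was not called, nor was Kcnt2, a sodium-activated channel read in 7.98% of Rgs5-high wells. Kcnj15, over all kept wells the most widely read inward rectifier of the set, was read in 7.36% of Dcn-high and 0.599% of Rgs5-high wells, and lay below the filter.

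Kcnq1ot1, a noncoding RNA transcribed from the opposite strand within Kcnq1, was read in 80.95% of Mia/Scrg1-positive, 33.7% of Dcn-high and 17.96% of Rgs5-high wells, at 1.19 RPKM or less in every class and tumor. It lay below the filter, and without the filter it was not called in any comparison (adjusted p = 0.910, 0.221 and 0.373, edgeR). The protocol keeps no strand, so reads in exons shared with a gene on the other strand cannot be told apart. Such shared exon stretches are annotated for Kcnk1 (179 bases), Kcnk2 (277 bases), Kcnab1 (80 bases), Trpm3 (277 bases), Kcnma1 (1016 bases), Kcnn2 (323 bases), Kcnj15 (333 bases), Kcnt2 (102 bases), Trpc4ap (37 bases) and Kcnq1ot1 with Kcnq1 (121 bases).

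Genes of neighbouring families were listed to place these results: chloride channels, calcium pumps and exchangers, intracellular calcium release genes, sodium channels and pumps, and TRP channels with other symbols. Of 86 listed, 85 were in the table and 50 were tested. Between Rgs5-high and Dcn-high cells, 4 of the 50 were called where 4.52% of all genes were, all higher in Rgs5-high cells (1.59% of all genes): Ano1, the calcium-activated chloride channel, at 5.45 ± 0.81, Atp2a3, a calcium pump of the endoplasmic reticulum, at 8.45 ± 1.19, Atp1b2, a sodium pump subunit, at 4.78 ± 0.77, and Lrrc8c, a volume-regulated anion channel subunit, at 2.86 ± 0.51. Ano1 stood at 179 and 165 RPKM in Rgs5-high wells, 2.00 and 8.84 RPKM in Dcn-high wells and 34.0 and 65.2 RPKM in Mia/Scrg1-positive wells. Only Ano1 of the 4 stayed called with the tumor as a block (adjusted p = 0.0410, edgeR).

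Against Mia/Scrg1-positive cells, 13 of the 50 were called higher and 2 lower in Rgs5-high cells, where 12.2% of all genes were called, and 8 higher and 3 lower in Dcn-high cells, where 11% were. With the tumor as a block, 9 of the 15 calls in Rgs5-high cells were lost (adjusted p from 0.0501 to 0.117, edgeR), leaving Atp1b2, Clic4, Jph2, Mcoln2, Scn7a and Slc8a1. In Dcn-high cells 5 of the 11 were lost (adjusted p from 0.0607 to 0.101, edgeR), leaving Ano1, Clic4, Lrrc8d, Mcoln2, Scn7a and Slc8a1. Scn7a, a sodium-level sensing channel, was 9.79 ± 0.73 higher in Rgs5-high and 10.59 ± 0.74 higher in Dcn-high cells, both called. Slc8a1, the sodium-calcium exchanger, was called in both comparisons, at 1.54 and 2.58 RPKM in Rgs5-high wells and 0 RPKM in Mia/Scrg1-positive wells. Mcoln2, an endolysosomal TRP channel, was at 12.8 and 16.95 RPKM in Dcn-high, 4.47 and 6.61 RPKM in Rgs5-high and 0 RPKM in Mia/Scrg1-positive wells, called in both comparisons. Lrrc8d went the other way, at 30.2 and 17.5 RPKM in Mia/Scrg1-positive wells, -2.50 ± 0.50 for Rgs5-high (lost with the tumor as a block, adjusted p = 0.0792, edgeR) and -4.51 ± 0.55 for Dcn-high minus Mia/Scrg1-positive cells. The remaining calls were Casq1, Clic4, Jph2, Lrrc8a, Piezo2, Pkd2, Scn2b, Scn4b and Tpcn1 with Atp1b2 and Atp2a3 in the first comparison, Tpcn1 being the second gene that was lower in Rgs5-high cells, and Atp1b2, Clic4, Jph2, Pkd2, Scn2b, Ano1 and Lrrc8c in the second, the last 2 being lower in Dcn-high cells.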

How the data were processed

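Smart-seq2 libraries of 768 sorted cells were aligned by the authors to mm10 with STAR and counted on RefSeq genes, and they deposited the read counts and the RPKM values made with rpkmforgenes. There are no molecular identifiers, so intervals cover counting error only. Wells with at least 10000 reads on mouse genes were kept, classed by Rgs5, Dcn, Mia and Scrg1 RPKM, and their counts were summed to 6 class-by-tumor libraries. These were tested with edgeR 4.0.16 in R 4.3.3 (TMM, quasi-likelihood, no covariate) for genes with a mean of at least 1 RPKM, at an adjusted p of 0.05. RPKM thus set the classes, this filter and the levels, and the tests used counts. The p-values measure the spread between 2 tumors. On simulated counts, for Rgs5-high against Dcn-high cells, 31 of 100 genes changed 4-fold and 98 of 100 changed 16-fold were recovered, and 6 of 11515 unchanged genes were called. For Dcn-high against Mia/Scrg1-positive cells, 20 and 90 of 100 were recovered and 3 unchanged genes called. Libraries of one number come from the same animal, which pairs them. Their deviations correlated at 0.133 (Rgs5-high with Dcn-high), 0.0515 and 0.0194 (Rgs5-high and Dcn-high with Mia/Scrg1-positive), and the fit with the tumor as a block was an alternative, as were DESeq2 1.42.0, other scalings, filters and gates. Named genes were all genes called, the 12 of highest mean RPKM, and the most widely read of each subfamily. Members, lists and tests were chosen with earlier results of these data known. Promoters and positions are from RefSeq (GRCm38.p6), where 19 of 23 genes under the naming rule had a promoter. Some genes under that rule are counted but not reported here. Shared exons are from GENCODE vM21.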

Additional observations from a re-analysis of the deposited data

Results flagged for a closer look

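Reads of the channel genes also lay in wells that no comparison used. In the 42 unclassed wells 38 of the genes had more than 3 reads, led by Trpc4ap with 803 reads in 23 wells, Trpm7 with 408 in 19 and Trpc6 with 365 in 11. In the 41 wells under 10000 reads 8 genes had more than 3 reads, led by Kcnk1 with 144 and Cacna1c with 13. These wells hold no class label, and no explanation was tested.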

How the results depend on the processing

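The number of genes read in at least 1 well was 102 and stayed between 79 (at least 5 reads) and 104 (no minimum of reads per well). None of the 31 calls changed direction under a setting that tested it. Apart from the 11 calls lost and Kcnn4 in Dcn-high against Mia/Scrg1-positive cells gained, the tumor block changed no call of a channel gene. For Rgs5-high against Dcn-high cells, 6 calls became 13 with DESeq2, 2 with the tumor as replicate block, and 0 at an adjusted p of 0.001. For Rgs5-high against Mia/Scrg1-positive cells, 14 became 1 at 0.001. For Dcn-high against Mia/Scrg1-positive cells, 11 became 0 at 0.001 and 7 with a gate minimum of 1000 RPKM, which left 1 and 5 Mia/Scrg1-positive wells. An adjusted p of 0.001 is thus met by 1 call, Kcne4 in Rgs5-high against Mia/Scrg1-positive cells. Leaving out wells with Epcam, which left 4 and 13 Mia/Scrg1-positive wells, lost 5 of the 29 calls it tested: Kcnk3 in Rgs5-high against Dcn-high cells (adjusted p = 0.0587), and, against Mia/Scrg1-positive cells, Kcnk6 in both comparisons (0.0545 and 0.0511) and Trpc6 and Trpv2 in Dcn-high cells (0.0506 and 0.0554), all by edgeR. The cause of these shifts was not tested.

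Leaving out 1 of the 6 libraries, added after seeing the data, leaves 1 sum in that class, assumed to vary like the others. It gave 0 to 12 calls for Rgs5-high against Dcn-high, 5 to 18 for Rgs5-high against Mia/Scrg1-positive and 1 to 16 for Dcn-high against Mia/Scrg1-positive cells. The first count was 1 or 0 without the Dcn-high sum of tumor 1 or 2, 0 without either Rgs5-high sum and 12 without either Mia/Scrg1-positive sum. The second fell to 5 and 6 without the Rgs5-high sums, and the third to 1 and 3 without the Dcn-high and 4 and 4 without the Rgs5-high sums. Of the 28 fold changes of genes under the naming rule that were tested, not called and not printed, 10 changed sign under some setting. ERCC totals as library size moved the median of all genes to -0.61 for Rgs5-high minus Dcn-high cells, and the 6 calls there remained, with 8 in all. Thinning to 50000 reads lowered the share of Dcn-high wells with Trpc6 from 17.8% to 5.84% and that of Rgs5-high wells from 85.2% to 82.1%.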
